A study of Mus musculus with 18 samples.

Results

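The 10 genes described here are ligands and receptors of Wnt signalling: the ligands Wnt3, Wnt6, Wnt9b and Wnt11, the Frizzled receptors Fzd1, Fzd5 and Fzd7, the coreceptors Lrp5 and Lrp6, and the R-spondin receptor Lgr4. They were taken by symbol, as 10 of the 18838 genes listed in the series, and all 10 are described, including those that passed no test. Bulk RNA-seq was run on duodenal crypts of 3 WT (Mtgr1+/+) and 3 Mtgr1-/- mice, 8 to 12 weeks old and of both sexes, with a constitutive loss of Mtgr1 in all tissues. From the crypts of each mouse, 1 library was made at isolation (day 0), 1 after 24 h as enteroids (day 1) and 1 after 72 h (day 3), giving 18 libraries in 6 groups of 3. Enteroids are crypts grown in a matrix in a medium that supplied EGF, Noggin and R-spondin to both genotypes, with no Wnt protein added. The question for these genes was how the Wnt supply and the receptors of the epithelium differed between genotypes in the tissue and as culture went on.

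Wnt proteins are lipid-modified signals that bind a Frizzled receptor together with Lrp5 or Lrp6, which stabilises beta-catenin and switches on TCF target genes. R-spondins bind Lgr receptors and keep Frizzled and Lrp proteins at the cell surface by restraining the ubiquitin ligases Rnf43 and Znrf3. In the small intestine, Wnt3 is made in the epithelium mainly by Paneth cells, while the stroma makes other Wnts, and a crypt cultured without stroma draws on its own Wnt3. MTGR1, encoded by Cbfa2t2, is a transcriptional co-repressor.

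Wnt9b and Wnt3 lie head to head on mouse chromosome 11 (GRCm38, GENCODE M21). Wnt9b spans 103727364 to 103749821 on the minus strand and Wnt3 spans 103774150 to 103817957 on the plus strand, with 24328 bases and no complete annotated gene between their starts. Fzd5 (64730558 to 64737751, minus strand) and Fzd7 (59482424 to 59486955, plus strand) are both on chromosome 1. The bases before the RefSeq start of these 4 genes are shown because Wnt3 and Wnt9b were the members with the steepest falls, and because Fzd5 and Fzd7, the 2 most abundant Frizzled transcripts, moved in opposite directions on the deposited scale. Sequences are from RefSeq (GRCm38.p6), on the strand of the gene, with any base inside the GENCODE gene left out. The RefSeq start of Fzd7 lies 277 bases before the GENCODE one. Capitals mark CTTTGA or CTTTGT, letters at the core of TCF/LEF sites, and CAGCTG or CAGGTG, letters of E-boxes, searched on both strands.
Wnt3, chr11:103773925-103774149, plus strand: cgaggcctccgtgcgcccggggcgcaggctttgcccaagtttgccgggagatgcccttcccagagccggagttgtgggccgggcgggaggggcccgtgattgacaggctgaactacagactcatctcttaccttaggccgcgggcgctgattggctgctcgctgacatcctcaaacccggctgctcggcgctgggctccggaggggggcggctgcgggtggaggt
Wnt9b, chr11:103749822-103750071, minus strand: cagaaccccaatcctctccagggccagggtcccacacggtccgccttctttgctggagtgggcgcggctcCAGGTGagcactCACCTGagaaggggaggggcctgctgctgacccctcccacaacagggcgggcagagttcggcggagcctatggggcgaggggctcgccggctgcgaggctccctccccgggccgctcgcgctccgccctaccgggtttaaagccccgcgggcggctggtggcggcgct
Fzd7, chr1:59481897-59482146, plus strand: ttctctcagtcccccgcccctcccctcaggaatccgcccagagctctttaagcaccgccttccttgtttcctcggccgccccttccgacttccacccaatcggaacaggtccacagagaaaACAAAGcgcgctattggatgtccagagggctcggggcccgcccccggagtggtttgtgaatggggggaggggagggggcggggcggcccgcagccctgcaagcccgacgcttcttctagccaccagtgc
Fzd5, chr1:64737752-64738000, minus strand: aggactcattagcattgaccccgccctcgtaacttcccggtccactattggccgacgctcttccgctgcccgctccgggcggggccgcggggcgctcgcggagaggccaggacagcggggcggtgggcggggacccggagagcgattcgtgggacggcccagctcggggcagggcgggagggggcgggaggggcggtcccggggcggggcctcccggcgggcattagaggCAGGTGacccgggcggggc
The Wnt9b window holds CAGGTG on each strand, with first bases 180 and 168 bases before the GENCODE start. The Fzd7 window holds CTTTGT on the minus strand, 129 bases before the RefSeq start and 406 before the GENCODE start. The Fzd5 window holds CAGGTG, 19 bases before the GENCODE start. None of these letters stands in the Wnt3 window. Of 32851 promoter windows of 250 bases, 17.2% hold CAGGTG, 16.5% CTTTGT, 13.8% CTTTGA and 13.0% CAGCTG on either strand, so such matches are common. RefSeq windows were found for 8 of the 10 genes.

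Values below are normalized counts, which are reads per gene divided by a size factor for each library, unless CPM, a gene's share of the reads on listed genes, is named. The reads on listed genes ranged from 22035316 to 29661084 per library. Cbfa2t2, the gene the mice lack, was not lower in the libraries of mice said to lack it. It was 614, 523 and 595 in WT crypts and 697, 466 and 534 in crypts labelled Mtgr1 null. The range at day 1 was 710 to 788 in WT and 789 to 1160 in null-labelled libraries, and at day 3 774 to 883 and 766 to 976. At day 1 each null-labelled library thus lay above each WT one, but the difference did not pass (limma, adjusted p = 0.0557). The sources used here do not say which exons the allele lacks, so a count over the whole gene cannot check the genotype, and the libraries are called null-labelled throughout. Epithelial markers (Epcam, Cdh1, Vil1, Krt8, Krt20) summed to 4412 to 10250 CPM in all libraries, whereas 7 fibroblast and pericyte markers summed to 0.22 to 4.1 CPM. Null-labelled crypt library 2 stood apart with 15296 counts of the Paneth cell lysozyme Lyz1, against 438 and 426 in the other null-labelled crypts and 56473 to 59796 in WT crypts. WT crypt library 3 stood apart with 3795 counts of the leukocyte gene Ptprc, against 377 and 408 in the other WT crypts.

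Per exonic kilobase, the members spanned a wide range in WT crypts, with receptors above ligands. Fzd5, at 25.1 ± 0.30 CPM per kb (SD, n = 3), and Lgr4, at 21.9 ± 5.7, stood at the top and overlapped each other. Lrp5 (8.19 ± 1.2) and Lrp6 (7.45 ± 0.81) followed and also overlapped, then Fzd7 at 4.37 ± 0.77, clear of its neighbours on both sides. Fzd1 (1.03 ± 0.29) and Wnt3 (0.923 ± 0.23) overlapped, and Wnt6 (0.210 ± 0.14) and Wnt9b (0.119 ± 0.038) overlapped below them. Wnt11 was lowest, at 0.0409 ± 0.028 CPM per kb.

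At day 0 the genotypes differed in Wnt3 alone among the members tested. Genes with a mean of at least 10 normalized counts entered limma's moderated test on log2(normalized count + 1), separately for each day, with Benjamini-Hochberg adjustment over all genes tested and a threshold of 0.05 on the adjusted p. Of the 9 members that passed this filter at day 0, 1 was called lower and none higher, where 4.73% of 12980 genes were called in either direction and 3.15% lower. In culture the count was larger, against a background in which most genes were called. At day 1, 7 of 9 members were called, 4 lower and 3 higher, where 58.9% of 12587 genes were called, 28.9% lower and 30% higher. At day 3, 5 of 8 were called, 4 lower and 1 higher, where 59% of 12782 genes were called, 29.1% lower and 29.9% higher. The share of members called in culture was thus near that of all genes, and the results lie in which members moved and how far. Of the members tested, 1 of 9 at day 0, 7 of 9 at day 1 and 6 of 8 at day 3 had groups that did not overlap, where the groups did not overlap for 25.5%, 68.1% and 68.8% of all genes tested. Among the called members, Wnt3 on each day and Wnt9b and Wnt6 at day 1 reached the filter only through the genotype in which they were higher. Leaving out WT replicate 1 or WT replicate 2 lowered the day 3 count from 5 to 2 members. The direction of the calls depended on the scale, since giving every library an equal total moved the median log2 fold change of all genes to −0.33 at day 1 and −0.20 at day 3, from −0.01 and 0.00. On that scale the members called were 0 higher and 5 lower at day 1 and 0 higher and 4 lower at day 3, and the calls over all genes were 28.3% higher at day 1 and 35.2% at day 3, against 50.9% and 50.7% on the deposited scale.

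**Figure D1:**
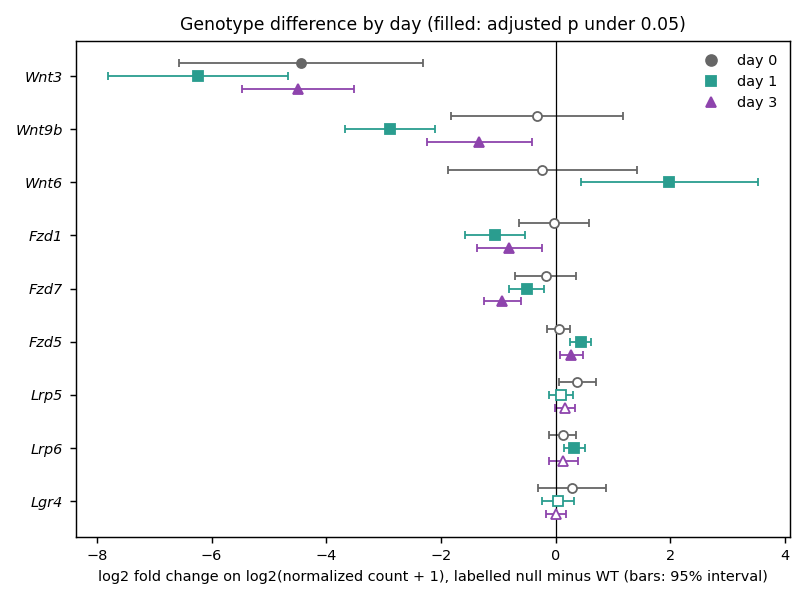
Log2 fold change of each member that passed the filter, null-labelled minus WT, on the log2(normalized count + 1) scale (x axis), by day (symbols), with 95% intervals from limma; filled symbols have an adjusted p under 0.05. Wnt3 lies left of 0 on each day, Wnt9b, Fzd1 and Fzd7 on days 1 and 3, and Fzd5 lies right of 0 on those days on the deposited scale.

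Wnt3, the epithelial ligand, was nearly absent from the null-labelled libraries on every day. In crypts it was 55.6, 68.3 and 93.2 in WT and 1.88, 11.4 and 0 in null-labelled libraries. Enteroids of day 1 had 200, 198 and 169 in WT and 0, 6.64 and 1.103 in the null-labelled group. Those of day 3 had 196, 200 and 175 in WT and 3.41, 7.95 and 14.6 in null-labelled enteroids. The groups did not overlap on any day, and mean counts were 16.3-fold lower at day 0, 73.3-fold lower at day 1 and 22.0-fold lower at day 3. These folds rest on 14, 8 and 24 reads summed over the 3 null-labelled libraries of each day. The log2 fold change was −4.44 ± 0.90 (SE) at day 0 (limma, adjusted p = 0.0412), −6.23 ± 0.68 at day 1 (0.000344) and −4.49 ± 0.42 at day 3 (9.94e-05). The day 0 call is the weaker one: it was lost when the mouse number entered as a replicate block (adjusted p = 0.0576), in edgeR on recovered reads (0.0850), and in 5 of 6 fits that each left out 1 library. It was kept without null replicate 2 and without both libraries that stood apart.

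Within WT, the share of reads on Wnt3 stood above that of fresh crypts in enteroids, at 7.94 ± 0.74 CPM at day 1 and 7.96 ± 0.63 at day 3 against 2.84 ± 0.71 at day 0 (SD, n = 3). In null-labelled libraries the level stayed between 0.093 ± 0.13 and 0.31 ± 0.21 CPM. These shares of reads are given across days as a description, since each day was normalized on its own. The change of the genotype difference from day 0 to day 1 was −1.79 ± 1.09 on the log2 scale and did not pass (limma over 18 libraries with mouse as a random effect, adjusted p = 0.206). That call depended on how low counts were weighed, since with a pseudocount of 8 it was −1.49 with an adjusted p of 0.0184 by limma, and on the log2(CPM + 1) scale −1.34 with 0.00185.

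**Figure D2:**
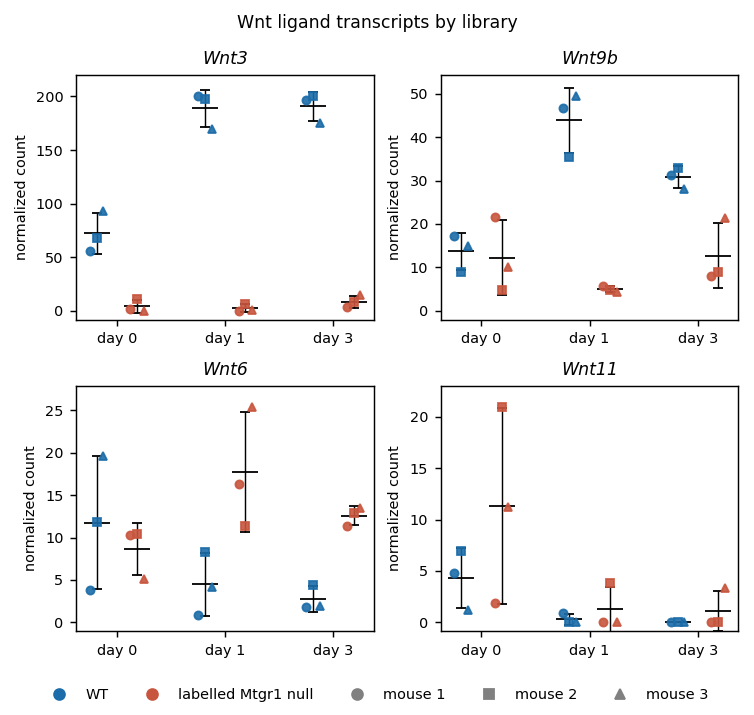
Normalized counts (y axis) of the 4 ligands in each library by day (x axis), colour for genotype label, symbol for mouse, bars for the mean and SD of 3 libraries; the y scale differs between panels. Wnt3 lies between 55.6 and 200 in WT and between 0 and 14.6 in null-labelled libraries, whereas Wnt6 in enteroids lies higher in the null-labelled ones.

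Markers of Paneth cells, the main epithelial source of Wnt3, moved with it. The list held 6 markers (Lyz1, Mmp7, Ang4, Defa17, Defa24, Itln1), whose summed level was 5000 to 6279 CPM in WT crypts and 49.97 to 1850 in null-labelled crypts. The sum at day 1 was 2725 to 2958 CPM in WT and 24.0 to 243 in null-labelled enteroids, and at day 3 3724 to 5174 and 67.1 to 297. In bulk RNA, fewer cells of a type and less RNA per cell cannot be told apart, and the part of Paneth cell number in the Wnt3 difference was not tested. Null-labelled crypt library 2 had 1850 CPM of Paneth markers and 11.4 counts of Wnt3, the highest of both in null-labelled crypts, while WT crypt library 1 had 5000 CPM and 55.6 counts. At day 1 null-labelled library 2 was again highest in both (243 CPM, 6.64 counts). At day 3 the 2 parted. Null-labelled library 2 had the most Paneth markers (297 CPM, 7.95 counts of Wnt3), and library 3 had the most Wnt3 (14.6 counts, 126 CPM). None of the 6 Paneth markers passed the test at day 0, the day on which Wnt3 alone of the members was called, and all 6 passed as lower at day 1 and at day 3. Goblet and enteroendocrine cells are the other secretory types, and 3 of 3 goblet and 4 of 4 enteroendocrine markers tested passed as lower at each day. Beside these marker counts, 3.15%, 28.9% and 29.1% of all genes tested were called lower on days 0, 1 and 3. The 3 genes whose log2(CPM + 1) ran closest to Wnt3 over the 18 libraries were Neurog3 (Pearson r = 0.99), the enteroendocrine master regulator, A4gnt (0.99) and Insm1 (0.99). Such likeness, given without a test, mostly follows the split of 9 WT from 9 null-labelled libraries and the days, which all points share.

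**Figure D3:**
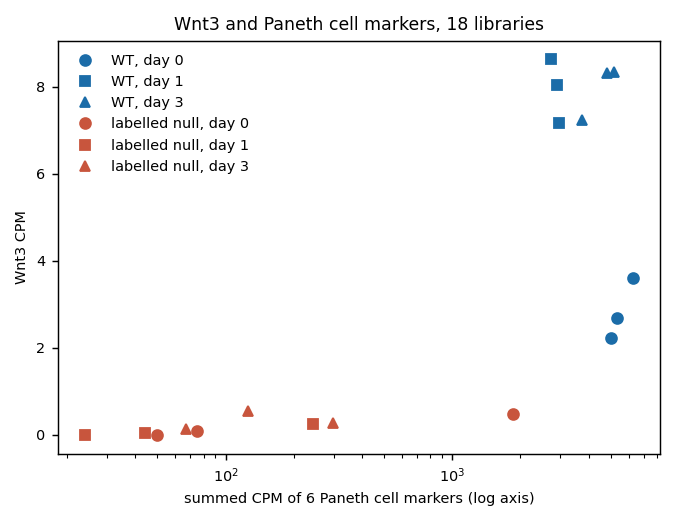
Wnt3 in CPM (y axis) against the summed CPM of 6 Paneth cell markers (x axis, log scale) in each of 18 libraries, colour for genotype label and symbol for day. WT libraries lie at 2725 CPM of markers or more, null-labelled ones at 1850 or less, and the WT crypts have less Wnt3 than WT enteroids at a like or higher marker level.

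Wnt9b, the neighbour of Wnt3, did not differ in crypts beyond the spread but fell in enteroids. In crypts it was 17.2, 8.91 and 14.96 in WT and 21.7, 4.76 and 10.2 in null-labelled libraries, and the groups overlapped (log2 fold change −0.33, 95% interval −1.82 to 1.17). Day 1 enteroids had 46.6, 35.4 and 49.4 in WT and 5.83, 4.74 and 4.41 in null-labelled enteroids. Day 3 enteroids had 31.4, 33.0 and 28.1 in WT and 7.96, 8.95 and 21.3 in null-labelled enteroids. The groups did not overlap on either day in culture, with log2 fold changes of −2.90 ± 0.34 at day 1 (limma, adjusted p = 0.000441) and −1.33 ± 0.40 at day 3 (adjusted p = 0.0201). The day 3 call was lost without WT replicate 1 (adjusted p = 0.0619) and without WT replicate 2 (0.0689). The genotype difference itself changed between day 0 and day 1, by −2.57 ± 0.65 (limma, adjusted p = 0.00681), and this held in all 18 fits that left out 1 library. In WT the level was 0.539 ± 0.17 CPM at day 0, 1.84 ± 0.28 at day 1 and 1.29 ± 0.11 at day 3, while in null-labelled libraries it was 0.492 ± 0.36, 0.168 ± 0.024 and 0.465 ± 0.28. Over the 18 libraries its Pearson r with Wnt3 on log2(CPM + 1) was 0.84, given without a test.

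Wnt6 moved the other way in enteroids, at a low level. It was 3.83, 11.9 and 19.6 in WT crypts and 10.4, 10.5 and 5.08 in null-labelled crypts, which overlapped. Wnt6 at day 1 was 0.915, 8.33 and 4.19 in WT and 16.3, 11.4 and 25.4 in null-labelled enteroids, and the groups did not overlap. The log2 fold change was 1.98 ± 0.66 (limma, adjusted p = 0.0336), from 14 reads over the WT libraries and 49 over the null-labelled ones, and the gene reached the filter only through the latter. This call was lost without WT replicate 1, WT replicate 3 or null replicate 1, with adjusted p of 0.0848, 0.0618 and 0.0783, and without null replicate 3 the gene did not reach the filter. It was also lost on the scale of equal library totals (1.70, adjusted p = 0.0538). At day 3 Wnt6 was 1.79, 4.45 and 1.94 in WT and 11.4, 12.9 and 13.5 in null-labelled enteroids, with no overlap, but its mean of 7.66 was under the filter. Tested without the filter it was 1.93 higher on the log2 scale (limma, adjusted p = 0.00540).

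Wnt11, a ligand best known for signalling without beta-catenin, was close to the limit of detection. It was 4.79, 6.93 and 1.15 in WT crypts and 1.88, 20.9 and 11.2 in null-labelled crypts, and the groups overlapped. In enteroids it had 0 or 1 read in each WT library and 0 to 4 reads in each null-labelled library, and a count of 0 allows up to 3 reads. It passed the filter on no day, and a difference was not detectable at this depth.

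Fzd5, the most abundant Frizzled here and a receptor of Paneth and stem cells, was level between genotypes in crypts and higher in null-labelled enteroids on the deposited scale. In crypts it was 4407, 4405 and 4433 in WT and 4973, 4403 and 4378 in null-labelled libraries, a log2 fold change of 0.05 with a 95% interval of −0.15 to 0.25. At day 1 it was 3897, 4040 and 4042 in WT and 5114, 5281 and 5794 in null-labelled enteroids, and rose by 0.43 ± 0.081 on the log2 scale (limma, adjusted p = 0.00286). At day 3 it was 4020, 4003 and 4506 in WT and 4597, 5292 and 5232 in null-labelled enteroids, a rise of 0.27 ± 0.089 (adjusted p = 0.0297). The groups did not overlap on days 1 and 3. The day 3 call was kept in 2 of 6 fits that left out 1 library, those without WT replicate 3 or null replicate 1. On the scale of equal library totals the rise was 0.11 at day 1 (limma, adjusted p = 0.323) and 0.07 at day 3 (0.459). After quantile normalization it was 0.14 (0.188) and 0.06 (0.525), so the call of Fzd5 as higher was lost on both scales. Median-ratio rescaling kept it, at 0.40 (limma, adjusted p = 0.00386) and 0.26 (0.0296). On recovered reads edgeR (adjusted p = 0.00460 and 0.0399) and DESeq2 (1.45e-05 and 0.0169) kept it too. Without the trend in limma the day 3 call was lost (0.0565). The change of the genotype difference from day 0 to day 1 was 0.38 ± 0.11 (limma, adjusted p = 0.0135), and 0.03 on the log2(CPM + 1) scale (adjusted p = 0.871).

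Fzd7, the Frizzled known for its part in Lgr5+ stem cells, was lower in null-labelled enteroids. In crypts it was 445, 606 and 459 in WT and 511, 525 and 322 in null-labelled libraries, and the groups overlapped (log2 fold change −0.17, 95% interval −0.70 to 0.36). By day 1 it had reached 830, 870 and 669 in WT and 567, 601 and 493 in null-labelled enteroids. By day 3 it was 1156, 1171 and 1257 in WT and 785, 567 and 549 in null-labelled enteroids. The groups did not overlap on either day, and the log2 fold change was −0.51 ± 0.13 at day 1 (limma, adjusted p = 0.0127) and −0.93 ± 0.14 at day 3 (adjusted p = 0.000909). The day 1 call was lost without WT replicate 2 (adjusted p = 0.0514 by limma). As a share of reads, WT libraries held 19.8 ± 3.5 CPM at day 0, 33.2 ± 4.8 at day 1 and 49.9 ± 1.8 at day 3. Null-labelled libraries held 18.4 ± 5.6, 18.7 ± 3.2 and 23.2 ± 6.0 CPM. These shares are a description. By limma the change of the genotype difference did not pass from day 0 to day 1 (−0.34, adjusted p = 0.327) or from day 1 to day 3 (−0.43, 0.755). Stem cell markers (Lgr5, Ascl2, Smoc2, Olfm4, Axin2) were also lower in null-labelled enteroids, by far more than Fzd7. At day 1 they summed to 1019 to 2063 CPM in WT and 24.2 to 36.3 in null-labelled enteroids. At day 3 they summed to 3360 to 4183 and 36.1 to 75.4, and 5 of 5 were called lower on both days. In crypts, where Fzd7 overlapped, they summed to 1125 to 1489 and 99.6 to 217 CPM and 1 of 5 was called lower. A summed CPM weighs the most abundant markers most, and Lgr5 was not called in crypts. The lower sum there thus cannot be read as a fall of all 5. Over all genes tested, 3.15% were called lower at day 0, 28.9% at day 1 and 29.1% at day 3. The part of the stem cells in the Fzd7 difference was not tested. The genotype difference changed by −0.76 ± 0.26 between day 0 and day 3 (limma, adjusted p = 0.0390), and was lost without both libraries that stood apart (−0.58, adjusted p = 0.151). Of 18 fits that left out 1 library, 6 kept this call, namely those without WT replicate 2 or null replicate 3 of day 0, WT replicate 2 or 3 or null replicate 2 of day 1, or null replicate 1 of day 3.

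Fzd1 was the least abundant of these receptors and fell in enteroids. In crypts it was 112, 77.2 and 140 in WT and 105, 117 and 93.5 in null-labelled libraries, and the groups overlapped. Counts at day 1 were 59.4, 68.7 and 69.6 in WT and 33.8, 33.2 and 26.5 in null-labelled enteroids, a log2 fold change of −1.06 ± 0.23 (limma, adjusted p = 0.00520). At day 3 it was 78.0, 73.9 and 81.3 in WT and 46.6, 31.8 and 57.3 in null-labelled enteroids, a log2 fold change of −0.81 ± 0.25 (adjusted p = 0.0217). The groups did not overlap on either day. The day 3 call was kept in 3 of 6 fits that left out 1 library, being lost without any 1 of the WT libraries. The genotype difference changed from day 0 to day 1 by −1.03 ± 0.33 (limma, adjusted p = 0.0228). This call was lost without WT replicate 2 of day 0 (0.0605), null replicate 2 of day 0 (0.0558) or null replicate 3 of day 1 (0.0664).

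**Figure D4:**
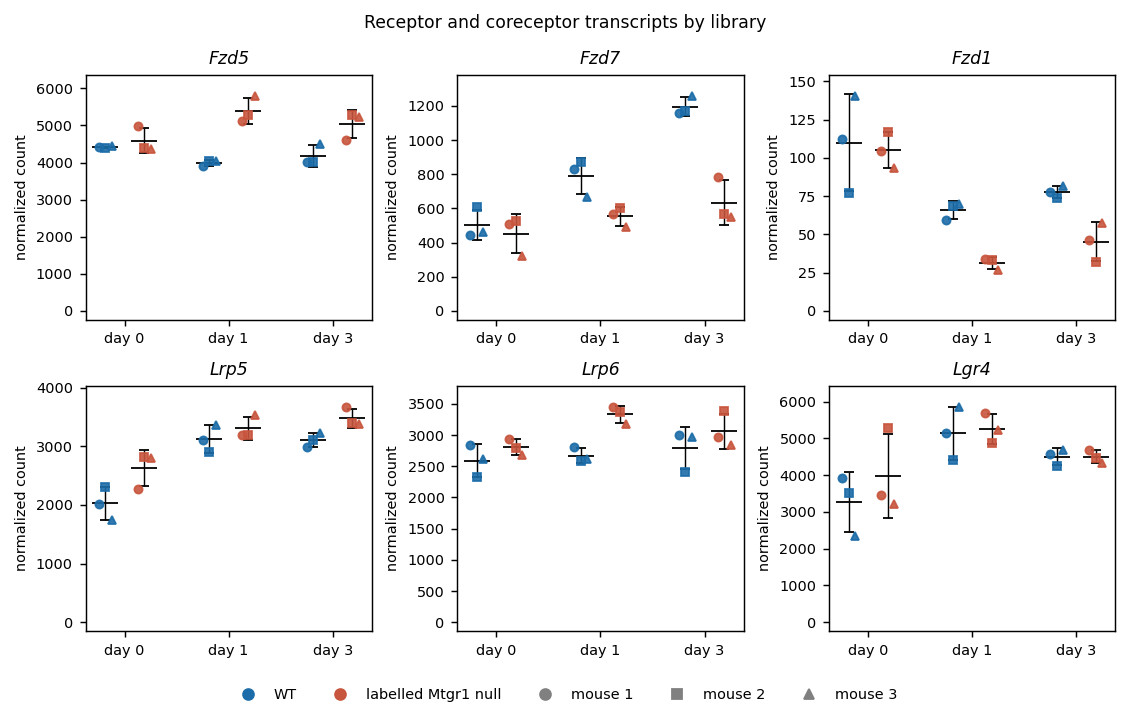
Normalized counts (y axis, from 0) of the Frizzled receptors, the coreceptors and Lgr4 in each library by day (x axis), colour for genotype label, symbol for mouse, bars for the mean and SD of 3 libraries. Fzd7 in WT reaches 1156 to 1257 at day 3 against 549 to 785 in null-labelled libraries, while the genotypes overlap for Lgr4 on every day.

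The make-up of the Frizzled pool, which no library scale enters, differed between genotypes in culture. Over the 9 Frizzled genes listed, and per exonic kilobase, Fzd5 made up 69.4% to 72.8% of the summed CPM in WT crypts and 70.8% to 75.6% in null-labelled crypts. At day 1 its share was 63.2% to 64.8% in WT and 74.4% to 77.9% in null-labelled enteroids, and at day 3 56.0% to 56.9% and 67.7% to 74.4%. Fzd7 held 11.1% to 14.6% in WT crypts and 8.49% to 13.1% in null-labelled crypts, 16.4% to 21.1% and 10.1% to 13.1% at day 1, and 24.2% to 25.0% and 11.9% to 17.7% at day 3. The log2 ratio of Fzd7 to Fzd5 counts differed, null-labelled minus WT, by −0.94 ± 0.18 (SE) at day 1 and by −1.204 ± 0.23 at day 3. In the exact two-sided permutation test, p was 0.10 on each of these days (0.15 adjusted over 3 days), the smallest that 3 against 3 allows, and 0.50 at day 0. The summed level of the pool was 35.8 to 39.6 CPM per kb in WT and 31.9 to 37.4 in null-labelled enteroids at day 1, and 43.0 to 47.3 and 35.1 to 37.7 at day 3.

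**Figure D5:**
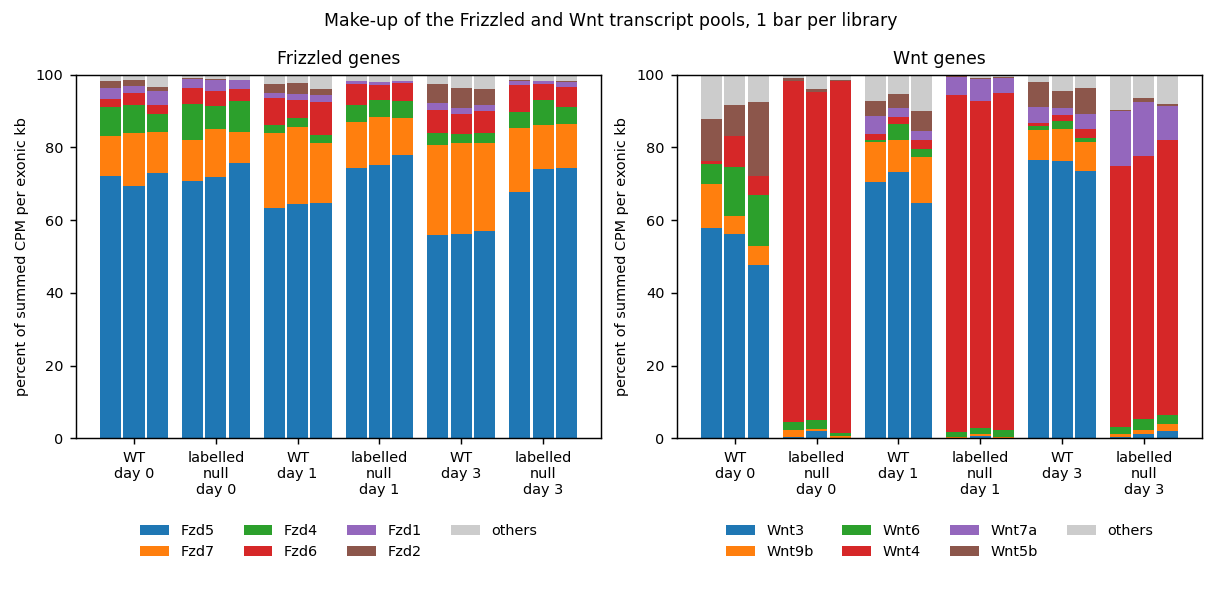
Percent of the summed CPM per exonic kilobase (y axis) held by each Frizzled gene (left) and each Wnt gene (right), 1 stacked bar per library, grouped by genotype label and day (x axis). Fzd5 holds 56.0% to 56.9% of the Frizzled pool in WT at day 3 and 67.7% to 74.4% in null-labelled enteroids, and Wnt3 holds most of the Wnt pool in WT enteroids and Wnt4 in null-labelled libraries.

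The coreceptors differed little. Lrp5 was 2023, 2309 and 1751 in WT crypts and 2276, 2820 and 2794 in null-labelled crypts, with a log2 fold change of 0.38 whose 95% interval was 0.06 to 0.70 and which did not pass after adjustment (limma, adjusted p = 0.197). In enteroids Lrp5 was 2896 to 3364 in WT and 3194 to 3539 in null-labelled libraries at day 1, and 2991 to 3225 and 3380 to 3665 at day 3, where the groups did not overlap. Its log2 fold change was 0.09 (95% interval −0.12 to 0.29) and 0.16 (−0.01 to 0.33), and on the scale of equal library totals −0.24 and −0.04. Lrp6 was 2809, 2588 and 2610 in WT and 3444, 3374 and 3183 in null-labelled enteroids at day 1. Its log2 fold change was 0.32 ± 0.078 (limma, adjusted p = 0.00899). It was 0.00 on the scale of equal library totals (adjusted p = 0.999) and 0.11 after quantile normalization (0.249). Median-ratio rescaling kept the call (0.29, limma, adjusted p = 0.0107), as did edgeR (0.0156) and DESeq2 (0.000971) on recovered reads. At day 0 Lrp6 was 2321 to 2838 in WT and 2677 to 2940 in null-labelled crypts, and at day 3 2413 to 3006 and 2849 to 3378, overlapping on both days.

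Lgr4, the R-spondin receptor found across the crypt epithelium, showed the smallest differences in culture on the deposited scale. It was 3915, 3521 and 2359 in WT crypts and 3450, 5291 and 3209 in null-labelled crypts. Its counts at day 1 were 5147, 4414 and 5842 in WT and 5686, 4867 and 5217 in null-labelled enteroids, and at day 3 4575, 4248 and 4695 and 4696, 4475 and 4332. The groups overlapped on every day. Its log2 fold change was 0.28 (95% interval −0.31 to 0.88), 0.04 (−0.24 to 0.32) and −0.00 (−0.18 to 0.17) from day 0 to day 3. Calls appeared on other scales. With equal library totals its log2 fold change was −0.28 at day 1 (limma, adjusted p = 0.0468) and −0.20 at day 3 (0.0780). After quantile normalization it was −0.27 at day 1 (limma, adjusted p = 0.0465) and −0.22 at day 3 (0.0395). The genes that ran closest to Lrp5 were Hspbap1, Aars and Cars (Pearson r = 0.96 each) and to Lgr4 Nras (0.91), Srp72 (0.90) and Dnaja2 (0.90), whereas the closest genes were further off for Lrp6 (Wdr37, 0.75, Strn, 0.74 and Abhd13, 0.72) and for Fzd5 (Wfikkn1, 0.73, Mfsd12, 0.72 and Sharpin, 0.70). Closest to Fzd7 were Rffl, Ikzf5 (0.97 each) and Btf3l4 (0.96), and to Fzd1 Dnah8 (0.96), Ampd3 (0.95) and Sorl1 (0.95).

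From day 1 to day 3 limma called a change of the genotype difference for 0 of 8 members tested, with 1 (Wnt9b) at an unadjusted p under 0.05, where 0.0309% of 12937 genes were called. Between day 0 and day 1 it called 3 of 8, namely Wnt9b, Fzd1 and Fzd5, where 39.4% of genes were called, and between day 0 and day 3 1 of 8, Fzd7, where 30.6% were called. Wnt3, at −4.44 in crypts, was not among them.

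The other genes of the pathway were read from 6 fixed lists with 79 genes in all. At day 0, 4 of 40 tested were called, 1 higher and 3 lower, at day 1 28 of 41, 13 higher and 15 lower, and at day 3 23 of 42, 10 higher and 13 lower, beside 4.73%, 58.9% and 59% of all genes. On the scale of equal library totals the split was 5 higher and 23 lower at day 1 and 7 higher and 17 lower at day 3. Their median log2 fold change was 0.09, −0.14 and 0.01, beside 0.01, −0.01 and 0.00 over all genes tested, and these medians were the same with genes absent from a whole group set at their bound. Of the 15 other ligands, 2, 2 and 3 reached the filter from day 0 to day 3, and 1, 2 and 3 were called, all higher. Wnt4, a ligand of the mesenchyme and of the female reproductive tract, was 0.958, 13.9 and 13.8 in WT crypts and 915, 715 and 1272 in null-labelled crypts. In enteroids Wnt4 was 6.40 to 8.38 in WT and 1120 to 2336 in null-labelled libraries at day 1, and 3.59 to 7.74 and 606 to 767 at day 3. Its log2 fold change was 6.96 ± 0.78 (limma, adjusted p = 0.00544), 7.72 ± 0.28 (7.99e-06) and 6.80 ± 0.26 (4.36e-06) from day 0 to day 3. Wnt7a was 9.20 ± 4.7 in WT and 72.6 ± 13 in null-labelled enteroids at day 1, and 9.21 ± 3.4 against 95.7 ± 27 at day 3, higher by 2.93 and 3.27 on the log2 scale. Wnt10a had no read in any WT library at day 3 and 9.94 to 39.8 counts in null-labelled ones. These 3 ligands passed the filter only through the null-labelled libraries. Others, chosen here after their values were seen, lay the opposite way at a low level. Wnt5b was 9.37 to 12.6 counts in WT and 0.948 to 6.62 in null-labelled enteroids at day 1, and 10.7 to 15.2 and 2.28 to 6.96 at day 3. Wnt9a was 11.5 to 20.1 in WT and 1.17 to 3.31 in null-labelled enteroids at day 1. Both were under the filter on those days, and Wnt5b in crypts did not pass (log2 fold change −1.83, limma, adjusted p = 0.232).

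Over the 16 Wnt genes listed, and per exonic kilobase, Wnt3 held 47.6% to 57.7% of the pool in WT crypts, 64.6% to 73.2% in WT enteroids at day 1 and 73.4% to 76.5% at day 3. In null-labelled libraries Wnt4 held 90.2% to 96.7%, 89.9% to 92.9% and 71.6% to 75.4%. The summed pool was larger in null-labelled libraries, at 7.95 to 11.6 CPM per kb against 1.25 to 2.47 in crypts, 10.9 to 19.3 against 3.61 to 3.83 at day 1 and 6.77 to 9.80 against 3.205 to 3.55 at day 3. Of the 7 fibroblast and pericyte markers, a class of cell that makes other Wnts in tissue, Pdgfrb alone reached the filter. At day 1 Pdgfrb was 5.49, 15.6 and 14.2 counts in WT and 53.6, 22.8 and 29.8 in null-labelled enteroids, higher by 1.53 on the log2 scale (limma, adjusted p = 0.0286), and it was not called at day 0 or day 3. The 7 markers summed to 0.220 to 0.744 CPM in WT and 0.873 to 1.83 in null-labelled enteroids at day 1, and overlapped on the other days. The part of such cells in the Wnt4 difference was not tested.

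Among the other receptors, Fzd2 was lower each day, at 1.89 ± 1.6 counts in null-labelled crypts against 51.2 ± 13 in WT, 0.632 ± 1.1 against 73.7 ± 23 at day 1 and 7.397 ± 3.9 against 196 ± 13 at day 3. Ror2, a receptor tyrosine kinase for Wnt5a, was lower too, at 3.84 ± 3.3 against 74.9 ± 26, 5.89 ± 7.2 against 286 ± 81 and 8.93 ± 2.1 against 322 ± 47. Fzd9 was lower in enteroids, by 3.28 at day 1 and by 2.91 at day 3 on the log2 scale. In crypts Fzd9 was not called, though it was 0 to 0.244 CPM per kb in null-labelled libraries and 0.305 to 0.486 in WT. In that list 2 of 8 genes were lower at day 0, 4 of 9 lower and 2 higher at day 1, and 4 of 9 lower and 1 higher at day 3. The shares of all genes called in either direction on these days were 4.73%, 58.9% and 59%.

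In the R-spondin module, Lgr5, the stem cell receptor and partner of Lgr4, was 819 ± 95 in WT and 77.7 ± 20 in null-labelled enteroids at day 1 and 1862 ± 457 against 82.9 ± 19 at day 3; it fell by 3.405 and by 4.47 on the log2 scale. The ubiquitin ligase genes Znrf3 and Rnf43, both Wnt targets, fell by 1.23 and by 0.52 at day 1, and Znrf3 fell by 1.101 at day 3. All 3 genes of this list that could be tested were called at day 1 and 2 of 3 at day 3, where 58.9% and 59% of all genes were called. Among genes for Wnt maturation, Porcn, the acyltransferase that adds the lipid, rose by 2.16 at day 1 and 1.77 at day 3, and Gpc4 by 0.82 and 0.45. Wls, the carrier that brings Wnts to the surface, fell by 1.78 at day 1 and by 0.67 at day 3. Of the antagonists, Sfrp5 was 71.7 ± 45 in WT crypts and 0.317 ± 0.55 in null-labelled crypts, had no read in null-labelled libraries at day 1 against 94.1 ± 27 in WT, and was 1.13 ± 1.1 against 162 ± 5.5 at day 3. Apcdd1 fell by 2.80 and 3.51 on days 1 and 3, and Kremen1 rose by 0.36 and 0.47 on the deposited scale. Inside the cell, Tcf7 fell by 1.43 and 1.38 and Tle3 by 1.37 and 1.07 on these days, Tcf7l2 rose by 0.57 at day 1 and Dvl2 fell by 0.63 at day 3. Of 17 transduction genes tested, day 1 called 6 higher and 4 lower, and day 3 called 3 higher and 4 lower. These shares were near that of all genes at day 1 (58.9%) and below it at day 3 (59%). Each gene named in these lists as rising or falling passed limma's test at an adjusted p of 0.0167 or less. Of these, Fzd2, Ror2, Fzd9, Sfrp5 and Apcdd1 reached the filter only through the WT libraries on each day on which they were called. All rises and falls named here are on the deposited scale. With equal library totals the median log2 fold change of all genes was −0.33 at day 1 and −0.20 at day 3. Whether small rises such as those of Kremen1, Gpc4 and Tcf7l2 hold on that scale is not reported here.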

How the data were processed

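RNA of duodenal crypts and of enteroids of 3 WT and 3 null-labelled mice was sequenced as stranded mRNA libraries. Per the labels and the study's methods, the authors trimmed reads with fastp 0.20.0, quantified them with Salmon 1.3.0 against GENCODE M21 (GRCm38), dropped genes with almost no count and normalized each day with DESeq2 1.26.0. The deposited signal values are gene-level counts divided by 1 size factor per library, so each day has its own scale. All values of all 18 libraries were whole multiples of 1 step per library (100%, tolerance 1e-06), which gave back reads. In WT crypt library 2 and null-labelled library 2 of day 3 the step was so near 1 that the steps were read from the last digits only. The tables' other columns hold the authors' mean, fold change, standard error, statistic and p-values, and were not used. Each value column was tied to 1 sample.

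Each day was tested with limma 3.58.1 (R 4.3.3, empirical Bayes with trend) on log2(normalized count + 1), 3 against 3, for genes with a mean of at least 10, with Benjamini-Hochberg adjustment over all genes tested and a threshold of 0.05. Changes of the genotype difference between days were tested in 1 limma fit of 18 libraries with mouse as a random effect (correlation 0.0058), over the genes of the 16414 in all 3 tables that reached the mean. Levels per kilobase used GENCODE M21 exons. Alternatives were other normalizations, pseudocounts of 0.1 and 8, other filters, edgeR 4.0.16 and DESeq2 1.42.0 on recovered reads, a replicate block and leaving out each library. After the data were seen, sex of the mouse as a covariate (from Xist), equal library totals and leaving out both libraries that stood apart were added. The ratio of Fzd7 to Fzd5 and its permutation test were not planned either. The fits were tested on simulated data. The 10 genes and the lists were chosen with earlier results of these data known. The named genes were all 10 members, up to 3 called genes with the largest change per list and day, and the 3 closest genes per member; those of Wnt9b are not reported here.

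Replicate numbers are mouse numbers and tie the days of 1 mouse. Between genotypes, deviations of libraries with the same number correlated at 0.076 to 0.346 at day 0, against −0.302 to 0.201 for other numbers. The means were 0.232 and −0.120. At day 1 the ranges were 0.116 to 0.231 against −0.190 to −0.015, and at day 3 −0.016 to −0.002 against −0.097 to 0.105. Same numbers thus ran closer on average at days 0 and 1, with overlapping ranges at day 0, and not at day 3. The study's methods name littermates of both genotypes, but no source used here says that a shared number marks a litter. Within a day, samples are separate mice, so p-values reflect the spread between 3 mice, and exact tests of 3 against 3 cannot go below 0.1. The tests of changes between days use repeated libraries of the same mice, with mouse as a random effect. Counting error and the number of mice limit precision for the ligands, some of which rest on a few reads.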

Additional observations from a re-analysis of the deposited data

Results flagged for a closer look

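Changes of the genotype difference between days passed the test for 4 results, fitted by limma over 18 libraries with adjustment over all genes. Wnt9b changed by −2.57 between day 0 and day 1 on the log2 scale (adjusted p = 0.00681), Fzd1 by −1.03 (0.0228) and Fzd5 by 0.38 (0.0135). Fzd7 changed by −0.76 between day 0 and day 3 (0.0390). At day 0 the groups of these 4 genes overlapped, and at the later day of each change the null-labelled libraries lay below all WT libraries for Wnt9b, Fzd1 and Fzd7 and above them for Fzd5. Groups of 3 libraries are too small for a search for single outlying samples.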

How the results depend on the processing

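The calls of Wnt3, Wnt9b, Fzd1 and Fzd7 as lower at day 1 and at day 3 held under every other normalization, pseudocount, filter and tool tried, and the replicate block changed no call of a member at days 1 and 3 and no count of members whose difference changed between days (7, 5, 3, 1 and 0 called, as without it). It gave 4, 29 and 23 other pathway genes by day, against 4, 28 and 23. At day 0, members called fell from 1 (Wnt3) to 0 under quantile normalization, a pseudocount of 0.1, no trend, edgeR, the replicate block and sex as a covariate, with adjusted p of Wnt3 from 0.0565 to 0.109 and an unadjusted p of 0.00171 in limma; DESeq2 called it. Without both libraries that stood apart 7 other pathway genes were called at day 0, against 4. Between day 0 and day 3, 4 members were called on the log2(CPM + 1) scale, 3 after quantile normalization and 0 without both libraries that stood apart, against 1. The cause of these shifts was not tested.

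Signs turned only for log2 fold changes that had not passed. Quantile normalization gave at day 0 0.32 for Wnt6, 0.23 for Wnt9b, 0.20 for Fzd1 and −0.010 for Fzd5, at day 1 −0.16 for Lrp5 and −0.27 for Lgr4, and at day 3 −0.030 for Lrp5 and −0.037 for Lrp6. Equal library totals gave 0.00 (0.000199) for Fzd1 at day 0, −0.24 for Lrp5 and −0.28 for Lgr4 at day 1, and −0.039 for Lrp5 and −0.066 for Lrp6 at day 3. Without both libraries that stood apart, day 0 gave 0.24 for Wnt9b, 0.086 for Fzd1 and −0.16 for Lgr4.

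Leaving out 1 library at a time gave 0 to 1 members called at day 0, 2 to 5 at day 3 and 0 to 1 between day 0 and day 3, and 2 to 5 other pathway genes at day 0. Log2 fold changes that turned ran at day 0 from −0.81 to 0.072 for Wnt6, −0.83 to 0.16 for Wnt9b, −0.26 to 0.17 for Fzd1, −0.0081 to 0.084 for Fzd5 and −0.30 to 0.056 for Fzd7, and for Lgr4 from −0.064 to 0.14 at day 1 and −0.043 to 0.029 at day 3.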
